A study of Mus musculus with 12 samples.

Results

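Inflammasomes are protein platforms that cells assemble when they sense microbes, crystals or damage. A sensor recruits the adaptor ASC, encoded by Pycard, which brings in caspase 1, encoded by Casp1, and caspase 1 then cleaves the precursors of interleukin 1β and interleukin 18 (Il1b and Il18) and the pore former gasdermin D. In the liver, resident macrophages (Kupffer cells) are known for strong expression of the Nlrp3 inflammasome, whereas Nlrp6 is known from epithelial cells such as enterocytes and is also expressed in hepatocytes.

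Expression of 8 such genes was followed in messenger RNA sequencing of whole mouse liver. The members were the sensors Nlrp6, Nlrp3, Nlrp12 and Aim2, the adaptor Pycard, the protease Casp1, and the cytokines Il18 and Il1b. They were found by gene symbol, and all 8 had a row among the 21705 genes measured. Nlrp6 was picked because it was lower in treated livers, so its difference between the groups is given below as a description without a test.

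The livers came from female C57BL/6J mice of 10 to 12 weeks, for which the labels give no genetic change. One group of 6 received saline into the tail vein (saline, replicates 43, 45, 47, 49, 51 and 53). The other 6 mice received LNA29 by the same route, which is the pair of locked nucleic acid oligonucleotides LNA29a and LNA29bc at 20 mg/kg of each, made to bind and block miR-29a, miR-29b and miR-29c (LNA29, replicates 44, 46, 48, 50, 52 and 54). Livers were taken 7 days after dosing and after a fast of 18 h. An LNA against another microRNA was not sequenced here, so a response to miR-29 inhibition and a response to LNA oligonucleotides as such cannot be told apart.

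The 3 microRNAs that the treatment blocks share the same seed, the bases that pair with target messages, and are shown for that reason. Bases 2 to 8 are in capitals, and the mature mouse sequences are from RefSeq on GRCm38.p6.
miR-29a-3p: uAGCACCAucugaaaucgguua
miR-29b-3p: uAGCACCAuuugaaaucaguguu
miR-29c-3p: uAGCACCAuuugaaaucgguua
The motif TGGTGCT, which pairs with all 7 seed bases, was searched on the sense strand of the longest 3′ UTR annotated for each member. None of the 8 UTRs held it, from the 88 bases of Casp1 to the 3689 bases of Nlrp12, and the Nlrp6 UTR was 1670 bases long. Across the annotation, 2755 of 21022 genes with a 3′ UTR (13.11%) held the motif. A missing motif says only that these letters are not in the annotated window.

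Libraries held between 7696023 and 19062037 reads on genes. Values are given on the deposited scale, on which the upper quartile of the expressed genes in each liver was set to 1000 and 1 read was worth between 9.80 and 24.4, depending on depth. A count of 3 reads, worth 29.4 to 73.2, was taken as the floor, and no fold change is given for a member with no liver above it in either group. The hepatocyte product albumin took 43.6% to 46.9% of the reads in 11 livers and 35.7% in saline replicate 49, which stood apart, and values without that liver are therefore given below. The microRNAs themselves were not measured in these libraries. As a check of the treatment, the miR-29 target Col3a1, a fibrillar collagen, had a mean value of 222 ± 57.6 (SD, n = 6) in saline and 650 ± 253 in LNA29 livers, the groups did not overlap, and the difference passed the test (log2 difference 1.48, SE 0.28, limma adjusted p = 0.0438). That call was lost when any liver other than saline replicate 45 or LNA29 replicate 46 was left out, and also when the livers were scaled to equal totals. Another target collagen, Col1a1, had a mean of 228 ± 80.4 in saline and 392 ± 199 in LNA29 livers and did not pass (log2 difference 0.70, limma adjusted p = 0.688).

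Nlrp6 was lower in LNA29-treated livers than in saline-treated controls, and it had the highest level per length of the 4 sensors in controls. It encodes an NLR protein whose pyrin domain can bind ASC, and the gene (Entrez 101613) lies on the plus strand at chr7:140920902-140929192 (GRCm38). In the saline livers its value was 3875 in replicate 43, 2460 in 45, 2386 in 47, 3010 in 49, 2737 in 51 and 2618 in 53. In the LNA29 livers it was 1700 in replicate 44, 1073 in 46, 1906 in 48, 1196 in 50, 1415 in 52 and 1630 in 54. Every LNA29 liver was thus below every saline liver. The means were 2848 ± 550 and 1487 ± 317 (SD, n = 6 each), a ratio of 0.522 and a difference of -0.95 on the log2(value + 1) scale.

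These values rested on 136 to 301 reads per saline liver and 44 to 136 reads per LNA29 liver. Spread between livers was larger than counting error alone would give, with a coefficient of variation of 19.3% against 6.60% in saline and 21.3% against 10.5% in LNA29. The livers nearest each other across the groups, saline replicate 47 and LNA29 replicate 48, had 95% Poisson counting intervals of 2002 to 2822 and 1552 to 2316, which overlap. Without saline replicate 49 the log2 difference was -0.93. Of the 12486 genes with a mean value of at least 10, 0.713% had all LNA29 livers below all saline livers and 0.272% all above, 0.985% together, and since Nlrp6 was chosen for its fall nothing is read from its place among them. In whole liver, fewer cells of a type that makes a message and less message per cell cannot be told apart.

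**Figure D1:**
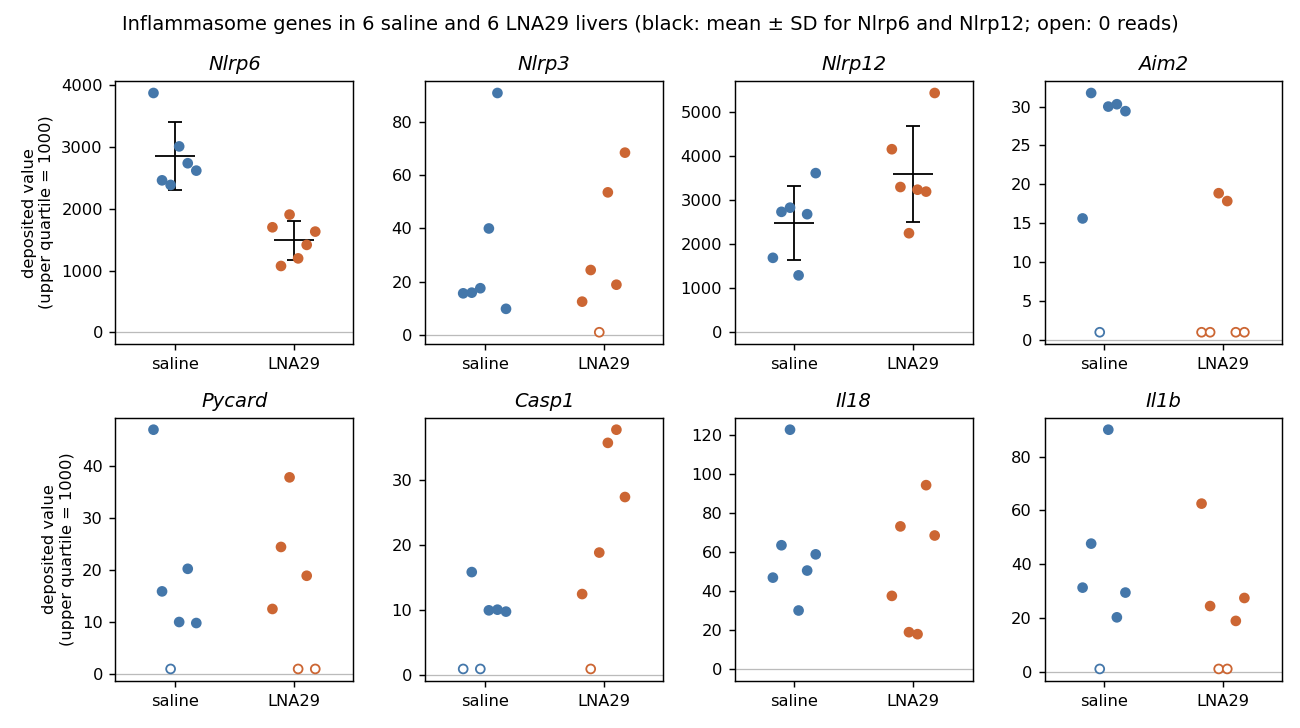
Each panel plots 1 gene in the 6 saline (blue) and 6 LNA29 (orange) livers on the deposited scale (upper quartile of expressed genes = 1000), with its own linear axis from about 0. Open circles are livers without a read, which were deposited as 1, and black bars are the mean ± SD, drawn for Nlrp6 and Nlrp12 only. The groups separate for Nlrp6, with saline livers from 2386 upward and LNA29 livers up to 1906, and overlap for the other 7 genes.

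Nlrp12 was the only other member with more than 9 reads in any liver. It encodes an NLR with a pyrin domain that is best known as a brake on NF-κB signalling and as an inflammasome sensor in some infections. Its gene (Entrez 378425) lies on the minus strand at chr7:3218784-3249740. The saline values were 1688 in replicate 43, 2730 in 45, 2825 in 47, 1290 in 49, 2677 in 51 and 3608 in 53. The LNA29 values were 4150 in replicate 44, 3293 in 46, 2245 in 48, 3232 in 50, 3189 in 52 and 5425 in 54. Most LNA29 livers lay above most saline livers, but LNA29 replicate 48 lay below 4 saline livers and the groups overlapped.

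The mean of Nlrp12 was 2469 ± 841 in saline and 3589 ± 1083 in LNA29 livers (SD, n = 6 each), on 108 to 396 reads per liver. The log2 difference was 0.57 (SE 0.24, 95% interval 0.06 to 1.07). It did not pass the test over all genes (limma p = 0.0301, adjusted p = 0.554), and a two-sided exact permutation test, which took each of the 924 ways to divide the livers, gave p = 0.0801, where the smallest possible was 0.00216. Without saline replicate 49, the lowest of the saline livers, the log2 difference was 0.40. The annotation places the miRNA genes Mir291a, Mir292, Mir291b, Mir293, Mir294 and Mir295 on the opposite strand within Nlrp12 and Mir292b on its own strand. The sources used here do not state counting by strand. Only spans of genes were compared and not exons, so whether reads of those genes could count for Nlrp12 was not tested.

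In 3 of 6 saline livers the Nlrp12 value was above the Nlrp6 value, and in LNA29 livers it was above in 6 of 6. These values are not divided by length, and the longest annotated transcripts were 6928 bases for Nlrp12 and 4436 for Nlrp6. The counts therefore do not say which of the pair was the more expressed. The ratio of Nlrp12 to Nlrp6 ran from 0.429 to 1.38 in saline (median 1.04) and from 1.18 to 3.33 in LNA29 livers (median 2.57). LNA29 replicate 48, with 1.18, lay within the saline range, just under saline replicate 47 at 1.184, and the other LNA29 livers were at 2.25 or above. Because Nlrp6 was chosen for its fall, the shift in this ratio carries no test.

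**Figure D2:**
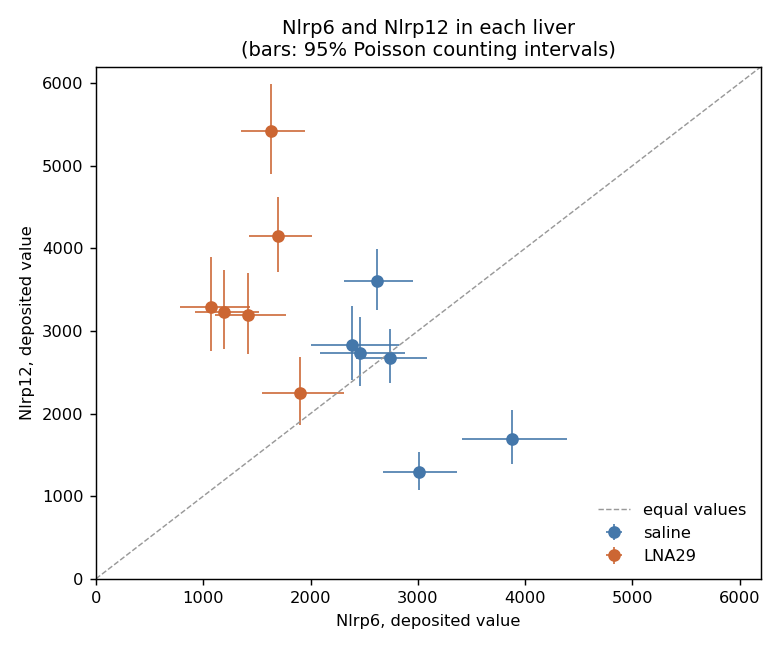
The Nlrp12 value (vertical axis) against the Nlrp6 value (horizontal axis) in each saline (blue) and LNA29 (orange) liver on the deposited scale, with bars for 95% Poisson counting intervals and a dashed line at equal values. All 6 LNA29 livers lie above the dashed line, and the saline livers lie on both sides of it, with replicates 43 and 49 farthest below. Values are not divided by length, so the line does not mark equal expression of the pair.

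Levels of different genes can be set side by side only per length. As mean reads per kilobase of the longest annotated transcript per 1000000 reads, Nlrp6 was at 4.32 in saline and 1.92 in LNA29 livers, and Nlrp12 at 2.13 and 2.97. Among 11095 genes with an annotated length, Nlrp6 was thus at percentile 82.0 in saline and 73.2 in LNA29, and Nlrp12 at 71.8 and 79.3. On this scale Nlrp6 was the higher of this pair in saline and Nlrp12 in LNA29 livers. It divides by all reads of a liver, unlike the deposited scale, and includes saline replicate 49, where albumin took only 35.7% of the reads. These levels were not computed without that liver, and no fold change is taken from them. Il18 was at 0.409 and 0.331, and Il1b at 0.224 and 0.0898. Nlrp3, Aim2, Pycard and Casp1 were below 0.09 in both groups, too few reads to order them.

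The Nlrp3 sensor, which responds to potassium efflux and crystals, gave few reads in whole liver. The saline livers had 1 read each apart from replicates 49 with 4 and 51 with 9. The LNA29 livers had 1, 1, 0, 3, 1 and 5 reads in replicates 44 to 54 in order. The groups overlapped, and the log2 difference of -0.34 (SE 0.84, 95% interval -2.12 to 1.44) did not pass (limma adjusted p = 0.960, exact permutation p = 0.740). Its sign turned when saline replicate 51 or LNA29 replicate 48 was left out (0.04 and 0.31), so these data give Nlrp3 no direction.

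Aim2, the sensor of double-stranded DNA in the cytosol, had 12 reads over the saline livers and 2 over the LNA29 livers. The LNA29 libraries were the less deep at the median, so these totals are not on the same scale. By liver, saline replicates 43 to 53 had 1, 2, 0, 3, 3 and 3 reads, and LNA29 replicates 44 to 54 had 0, 0, 1, 1, 0 and 0. No liver was above the floor, so no fold change is given. The exact permutation test gave p = 0.0476 before any adjustment, and the limma test over all genes gave an adjusted p of 0.657. The span of Aim2 overlaps that of Cadm3 on the opposite strand. Exons were not compared, so whether reads of Cadm3 could count for Aim2 was not tested.

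The adaptor and the protease were at the floor as well. Pycard had 8 reads over the saline livers, between 0 and 3 each, and 5 over the LNA29 livers, between 0 and 2 each (limma adjusted p = 0.971, exact permutation p = 0.766), and it overlaps Gm45205 on the opposite strand, with the same limit. Casp1 had 4 reads over the saline livers, at most 1 each, and 8 over the LNA29 livers, at most 2 each (limma adjusted p = 0.797, exact permutation p = 0.149). A change in either was not detectable at this depth.

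Il18, a cytokine that drives interferon γ production and is released after cleavage by caspase 1, had a few reads in every liver. Its saline livers held 3, 4, 7, 3, 5 and 6 reads in replicates 43 to 53, and its LNA29 livers 3, 3, 1, 1, 5 and 5 in replicates 44 to 54. The values ran from 30 to 123 in saline and from 17.9 to 94.3 in LNA29 and overlapped (log2 difference -0.39, SE 0.53, 95% interval -1.502 to 0.714, limma adjusted p = 0.917, exact permutation p = 0.433). That difference ran from -0.62 without LNA29 replicate 52 to -0.15 without LNA29 replicate 50. The span of Il18 overlaps those of Bco2 and Tex12 on the opposite strand. Exons were not compared, so whether their reads could count for Il18 was not tested.

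Il1b, the other caspase 1 substrate and a fever-inducing cytokine, had 2, 3, 0, 9, 2 and 3 reads in saline replicates 43 to 53. The LNA29 replicates 44 to 54 had 5, 1, 0, 0, 1 and 2 reads. The groups overlapped, and the log2 difference of -0.94 (95% interval -3.15 to 1.26) did not pass (SE 1.05, limma adjusted p = 0.888, exact permutation p = 0.396). It ran from -1.66 without saline replicate 47 to -0.42 without LNA29 replicate 48 or 50, and was -0.56 without saline replicate 49. The liver with most Il1b reads was saline replicate 49, and without it the values ran from 1 to 47.6 in saline against 1 to 62.5 in LNA29 livers. An antisense gene, Il1bos, is annotated on the opposite strand, with the same limit as for Il18.

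None of the 7 members other than Nlrp6 passed limma's test at an adjusted p of 0.05, where 0.16% of all 12486 genes tested passed (0.0721% higher and 0.0881% lower). At an unadjusted p under 0.05 there was 1, Nlrp12, which was higher in LNA29 livers, against 7.91% of all genes (1.95% higher and 5.97% lower). By edgeR and DESeq2 on recovered reads Nlrp12 did not pass either (adjusted p = 0.438 and 0.426), and these tools gave the low members no adjusted p.

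Genes around Nlrp6 on chromosome 7 were compared next, since they were chosen by position and not by their values. BC024386, a gene known by its clone name that ends 12.9 kb before Nlrp6 and lies on the same strand, had a mean of 8680 ± 2582 in saline and 5218 ± 1102 in LNA29 livers. Saline livers ran from 6095 to 12438 with a median of 7890, and LNA29 livers from 3463 to 6340 with a median of 5472, so that the groups overlapped only at their edge. Its log2 difference was -0.71 (SE 0.19, 95% interval -1.12 to -0.30), with an exact permutation p of 0.00649 and a limma p of 0.00182 that did not pass after adjustment over all genes (adjusted p = 0.211).

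None of the other 5 neighbours had an interval that left out 0. These intervals are not adjusted for the number of genes. Over all 12486 genes tested, 7.91% had a limma p under 0.05 before adjustment, 5.97% of them all being lower in LNA29 livers and 1.95% higher. Psmd13, a subunit of the proteasome lid, differed by 0.20 (95% interval -0.18 to 0.59), and Sirt3, a mitochondrial deacetylase, by -0.22 (-0.52 to 0.08). On the far side, Athl1, a glucosidase of hydroxylysine-linked sugars 12.2 kb away that is now named Pgghg, differed by 0.10 (-0.25 to 0.45). The interferon-induced Ifitm2 and Ifitm1 differed by -0.29 (-0.68 to 0.09) and -0.24 (-0.96 to 0.47). Limma adjusted p-values of these 5 ran from 0.758 (Ifitm2) to 0.933 (Athl1).

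**Figure D3:**
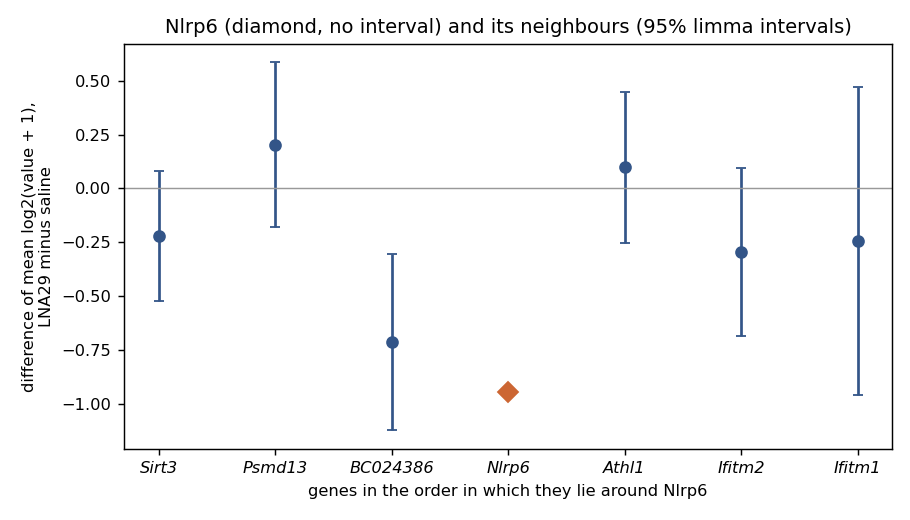
Differences of mean log2(value + 1), LNA29 minus saline, for Nlrp6 (diamond, without an interval because it was chosen for its fall) and the 3 nearest measured genes on either side in chromosomal order, with 95% limma intervals. BC024386, next to Nlrp6, is at -0.71 with an interval below 0, and the intervals of the other 5 neighbours include 0. Intervals are not adjusted for the number of genes, and BC024386 did not pass after adjustment.

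The 5 genes with the pattern most like that of Nlrp6 over the 12 livers were then found. Likeness was the mean absolute difference between profiles of log2(value + 1), each centred on its own mean, among 8989 genes with a mean of at least 100. The nearest was Plekhg2, a guanine nucleotide exchange factor, at 0.155, then Sord, sorbitol dehydrogenase, at 0.166, and Slc12a7, a potassium chloride cotransporter, at 0.194. They were followed by the mitochondrial carbonic anhydrase Car5a at 0.202 and Xylb, a xylulose kinase, at 0.204. Nlrp12 ranked 8310 at 0.799, where the median over genes was 0.542. Likeness was to a gene chosen for its fall, so a gene higher in LNA29 livers lies far from it by construction. The rank of Nlrp12 therefore carries no test.

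Levels of these genes differed widely, with means in saline from 252 ± 47.3 for Plekhg2 to 19649 ± 5227 for Sord. In LNA29 livers the mean of Plekhg2 was 137 ± 23.4 and that of Sord 12244 ± 2712. Car5a went from 2292 ± 356 in saline to 1288 ± 228 in LNA29 livers, Slc12a7 from 1783 ± 371 to 1167 ± 152, and Xylb from 7050 ± 1171 to 4742 ± 688. Being chosen for likeness to Nlrp6, they had to be lower in LNA29 livers and carry no test.

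Other genes of the pathway were taken from lists chosen with earlier results of these data known, and none of them passed the test. For reference, the median log2 difference over all 12486 genes was -0.09, and 61.4% of them were below 0. Scaling all livers to a common median moved this median to -0.05, and scaling to equal totals, which was added after the data were seen, moved it to -0.21, so small differences in 1 direction depend on the scaling.

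Among 24 other genes of the NLR and pyrin-domain families, 13 had a mean value of at least 10, and 11 of these were below 0. Their median was -0.56 (from -0.69 to -0.52 under the other scalings). The -0.56 was the value of Naip6, with 0 to 4 reads per liver (SE 1.02). Values so near the floor also depend on depth, which was lower at the median in LNA29 libraries, so no shift of the list is read from it. The sensor genes with the most evidence in reads had intervals on both sides of 0. Nlrx1, a mitochondrial NLR, was at 462 ± 100 in saline and 497 ± 65.8 in LNA29 livers (log2 difference 0.12, 95% interval -0.29 to 0.54), and Nod1, a sensor of bacterial peptidoglycan, at 268 ± 119 and 245 ± 45.9 (-0.02, -0.66 to 0.61). Nlrc5, a regulator of MHC class I genes, and Ifi203, an interferon-inducible gene, had a limma p under 0.05 before adjustment and are named after their values were seen. Over all genes tested, 5.97% were lower in LNA29 livers with such a p. Nlrc5 had 5 to 28 reads in saline and 1 to 11 in LNA29 livers (-1.08, adjusted p = 0.614), and Ifi203 4 to 28 and 1 to 10 (-1.26, adjusted p = 0.498). Both had their highest read count in saline replicate 49, with 28.

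Assembly factors and regulators, which license sensors or recruit caspases, numbered 28, of which 27 were measured and 23 tested. None passed, none had an unadjusted p under 0.05, and the median was -0.10. Fadd, the adaptor of caspase 8, was at 403 ± 67.0 in saline and 330 ± 91.5 in LNA29 livers (-0.31, 95% interval -0.78 to 0.15). Pstpip2, a macrophage F-BAR protein that restrains interleukin 1β, was at 760 ± 378 and 569 ± 279 (-0.39, -1.08 to 0.30).

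Of 22 pore formers and interleukin 1 family ligands, receptors and signal carriers, 19 were measured and 16 tested. None passed at an adjusted p of 0.05, and the median of -0.01 became 0.03 with a common median and -0.13 with equal totals. Il1rn, the antagonist that blocks the interleukin 1 receptor, ran from 590 to 1094 in saline with a median of 764 and from 811 to 1962 in LNA29 livers with a median of 1100. Its ranges overlapped, and the log2 difference of 0.57 (SE 0.23, 95% interval 0.08 to 1.05) did not pass after adjustment (limma p = 0.0245, adjusted p = 0.513, exact permutation p = 0.0476). Gsdmd, the gasdermin that caspase 1 cleaves, was at 715 ± 100 in saline and 582 ± 88.7 in LNA29 livers (-0.30, 95% interval -0.66 to 0.06, limma adjusted p = 0.726, exact permutation p = 0.0346).

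Response genes of NF-κB, the factor that primes Nlrp3 and Il1b transcription, numbered 26, of which 18 were tested and 15 were below 0, with a median of -0.46. None passed the test, and without saline replicate 49 there was 1. Lcn2, an iron-binding acute-phase protein, ran from 200 to 5524 in saline and from 293 to 988 in LNA29 livers (-1.33, SE 0.55, limma adjusted p = 0.536). The overlap of its groups rested on saline replicate 49, with 200. In the other saline livers Lcn2 ran from 1281 to 5524, above every LNA29 liver. Lcn2 is named here for its small p, so nothing more is read from this. Vcam1, an adhesion molecule of activated endothelium, was at 133 ± 53.3 in saline and 226 ± 84.6 in LNA29 livers (0.77, SE 0.34, limma adjusted p = 0.597). The summed value of the list varied widely within both groups, from 10490 to 55000 in saline and from 7146 to 62688 in LNA29 livers. Much of this spread lay in Saa1 and Saa2. Saa1 ran from 988 to 30112 in saline and from 659 to 37906 in LNA29 livers. Saa2 ran from 292 to 16685 and from 71.4 to 17069.

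**Figure D4:**
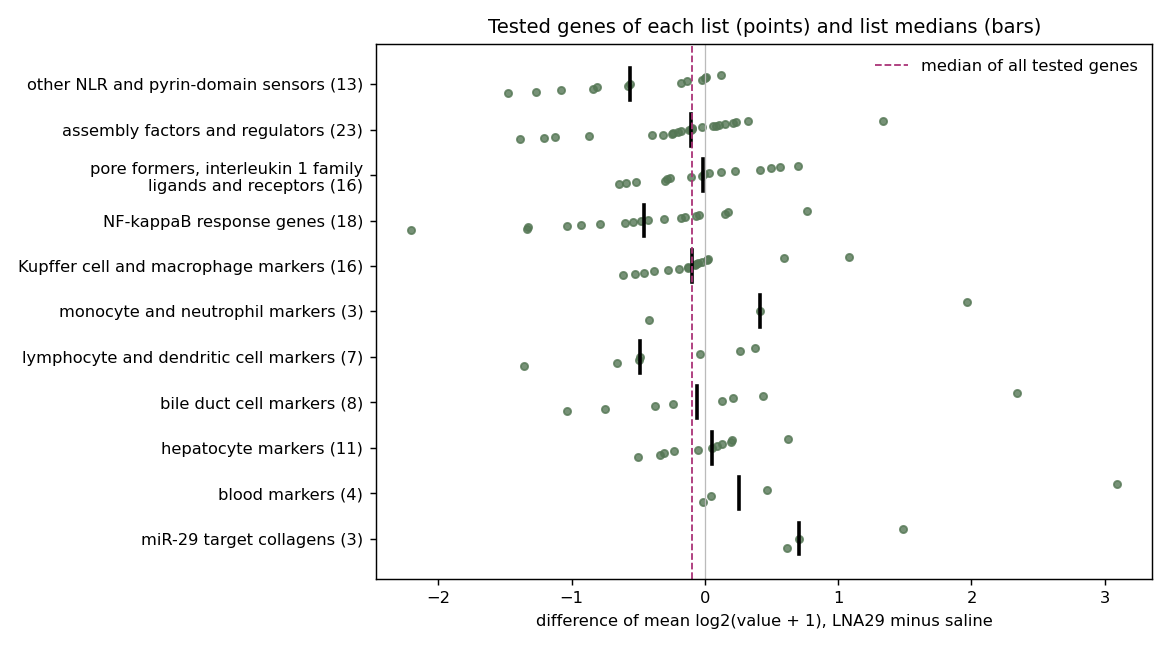
Difference of mean log2(value + 1), LNA29 minus saline, for each tested gene (points) of the pathway and cell type lists, with the number tested in brackets, list medians as black bars and the median of all 12486 tested genes as a dashed line at -0.09. The sensor and NF-κB lists have medians of -0.56 and -0.46, and of all points only Col3a1 at 1.48 passed the test. The sensor median is that of Naip6, at 0 to 4 reads per liver.

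Markers of the cell types that a liver sample can hold were set beside these results, and their part in them was not tested. Hepatocyte markers were present at high level in every liver, and the median of 11 of them was 0.05, or -0.07 with equal totals. Their summed value ran from 3.49e+07 in saline replicate 49 to 1.18e+08 in saline (median 9.48e+07) and from 8.35e+07 to 9.88e+07 in LNA29 livers (median 9.48e+07). All 16 markers of Kupffer cells and macrophages were tested and none passed. Their summed value ran from 17844 to 26614 in saline and from 16161 to 30630 in LNA29 livers, and the median was -0.10. Clec4f, which defines Kupffer cells, ran from 2484 to 4912 and from 2245 to 4411. Before adjustment 3 of the 16 had a limma p under 0.05 and are named after their values were seen: Marco, a scavenger receptor (log2 difference 1.08, adjusted p = 0.391), Lyz2, a lysozyme (0.59, adjusted p = 0.401), and Folr2, a folate receptor (-0.61, adjusted p = 0.535). Over all genes tested the share with such a p was 7.91%, with 1.95% higher and 5.97% lower. Marco was highest in LNA29 replicate 54, with 3425 (250 reads). In the other LNA29 livers it ran from 446 to 988, and in saline from 344 to 984.

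Monocyte and neutrophil markers were near the floor, with 3 of 12 measured genes tested and a summed value of 52.6 to 137 in saline and 24.4 to 226 in LNA29 livers. Lymphocyte and dendritic cell markers summed to 413 to 824 and 317 to 792, with 7 of 14 tested and a median of -0.49. That median was the value of Cd3e, with 0 to 12 reads per liver (SE 0.83). Bile duct markers summed to 1596 to 1922 and 1268 to 2057, with 8 of 9 tested and a median of -0.06. Blood markers summed to 36523 to 154145 and 37318 to 171293, with 4 of 5 measured genes tested. Of these the platelet gene Pf4, at 0 to 4 reads, had an unadjusted p under 0.05 (limma adjusted p = 0.243). Over all genes tested, 7.91% had such a p. None of the genes on these 4 lists passed the test.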

How the data were processed

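Livers of 6 saline-treated and 6 LNA29-treated mice were sequenced as poly(A) messenger RNA in single reads, 1 library per mouse. The authors mapped reads with MapSplice2 and estimated reads per gene with RSEM; the deposited signal values are these reads divided by the upper quartile of the expressed genes and multiplied by 1000, with genes without reads set to 1. The submitters' processing notes name the build mm9. The deposited table also holds the authors' group means, fold changes and p-values, which were not used, and 2 unnamed columns of values that were not used. Dividing by the worth of 1 read gave whole reads (within 0.1) for 94.9% to 96.2% of low values, so reads, rounded, were used for count tests and counting intervals. Intervals cover counting error only, and depth sets them: 7696023 to 19062037 reads.

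Groups were compared on log2(value + 1) by limma 3.58.1 (trend option, in R 4.3.3). The 12486 genes whose mean reached 10 were tested, p-values were adjusted after Benjamini and Hochberg, and 0.05 was the threshold; fold changes of genes with few reads depend on the pseudocount. Exact permutation tests were two-sided. Alternatives were pseudocounts of 0.1 and 10, no filter, a mean of at least 100, a common median, count tests of recovered reads by edgeR 4.0.16 and by DESeq2 1.42.0, leaving out values beyond 1.5 SD, leaving out each liver, and, added after the data were seen, equal totals. The limma, edgeR and DESeq2 tests were checked on simulated data. Positions, lengths and UTRs are from GENCODE M21 (GRCm38), which is not the build of the files, and only gene symbols join them. Members and lists were chosen with earlier results of these data known. Named genes were the members, in each pathway list those passing or else the 2 with the smallest p among genes with a mean of at least 10 reads, Col1a1 and Col3a1, 3 neighbours on either side of Nlrp6 and the 5 genes most like it.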

Additional observations from a re-analysis of the deposited data

Results flagged for a closer look

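Dixon's test for a liver apart from the others of its group was run on 58 groups of 6 livers over 29 genes and flagged 3, where chance alone would give about 2.9. Nlrp3 was highest in saline replicate 51 with a value of 90.9 (9 reads), against 9.80 to 40 in the other saline livers. Il18 was highest in saline replicate 47 with 123 (7 reads), against 30 to 63.5 in the others. Slc12a7 was lowest in LNA29 replicate 46 with 878 (36 reads), against 1163 to 1302 in the others.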

How the results depend on the processing

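No paired analysis was possible because the groups share no replicate numbers. Nlrp6 was lower in LNA29 livers under all 9 alternatives (log2 difference -1.07 to -0.85) and with each liver left out (-1.02 to -0.85). Since Nlrp6 was chosen for its fall and its groups did not overlap, leaving out 1 liver could not turn its sign. These ranges describe its size only. Nlrp12 stayed higher and short of the threshold under the alternatives (0.44 to 0.61) and with each liver left out (0.40 to 0.69), with adjusted p from 0.331 to 0.895. The number of genes passing the test over all genes, 20 (9 higher, 11 lower), depended on the processing: it was 10 with a common median (6 higher, 4 lower), 71 with DESeq2 (41 higher, 30 lower), 217 without values beyond 1.5 SD (73 higher, 144 lower), 1 with equal totals (1 higher, 0 lower), and 1 to 29 with a liver left out, with 1 without saline replicate 43 or LNA29 replicate 50 or 54, 3 without saline replicate 51, 7 without 53, 9 without LNA29 replicate 46, 10 without 52 and 11 without saline replicate 47. Without values beyond 1.5 SD, Nlrp3 turned to 0.043 and 1 blood marker and 2 collagens passed; with equal totals 0 collagens did. With a liver left out, Nlrp3 ran from -0.71 to 0.31, the sign of Pycard turned without saline replicate 43 or LNA29 replicate 50 or 54 (adjusted p 0.995, 0.992 and 0.982; 0.829 to 0.995 over all 12), and 0 to 1 NF-κB response genes and 0 to 1 collagens passed. No other list changed its count. With pseudocounts of 0.1 and 10, the log2 difference of Nlrp3 was -0.46 and -0.10 and that of Il1b -1.09 and -0.54. The 6 members of low reads gave no value with edgeR or with a mean of at least 100. DESeq2 gave these 6 no adjusted p, and its fold changes of Aim2, Pycard and Casp1, all at the floor, are not given. Depth limits these 6 members, at most 9 reads a liver, to wide intervals or to no fold change.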
